A study of Mus musculus with 16 samples.

Results

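The 46 genes described here carry the symbols used for proteins of the centrosome, the microtubule organising centre of the cell, and of augmin, a complex of the mitotic spindle. They are all protein-coding mouse genes in the RefSeq table (assembly GRCm38.p6, coordinates of build mm10) whose symbol is Cep or Haus followed by a digit, 38 Cep and 8 Haus genes out of 21887. The genes were chosen by symbol, and the family was picked for description with E2f4 summits and mark lengths of these same libraries already known. Those values are therefore given as descriptions, without a test.

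The series used chromatin immunoprecipitation and sequencing (ChIP-seq) in mouse liver to map H3K4me2, H3K27ac and the transcription factor E2f4. All mice were C57/B6 and 129 mix, were at postnatal day 90 and had undergone partial hepatectomy 40 h before collection, an operation after which the remaining liver cells re-enter the cell cycle. The group called WT carried Arid1a Fl/Fl, floxed alleles of the gene for a DNA-binding subunit of SWI/SNF, a chromatin remodelling complex. The group called KO carried Arid1a Fl/Fl; Alb-cre, with Cre driven by the albumin promoter of hepatocytes, so that most other liver cells keep the gene. The peak lists hold no measure of the deletion itself. Frozen tissue was fixed before hepatocytes were taken, with 2 E2f4 libraries per genotype and 1 library per genotype for each mark. The labels do not say whether replicates came from separate animals. With 1 library per genotype, differences in the histone marks have no replicate behind them.

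Each centrosome holds a pair of centrioles in a matrix of proteins, the pericentriolar material, from which microtubules grow. Centrioles are copied once per cell cycle by a pathway in which Cep63, Cep152 and Cep192 bring the kinase Plk4 to the parent centriole, and in resting cells the older centriole can carry a cilium through appendages that other Cep proteins form. Augmin, built from 8 Haus subunits, lets new microtubules branch from existing spindle fibres. E2f4 is an E2F family member that occupies cell cycle promoters with RB-related pocket proteins. H3K4me2 lies at promoters and enhancers, and H3K27ac at active ones.

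The data were the peaks that the authors had called in each library. The lists carry no read counts, depth is unknown, and a gene without a listed peak may still bind the protein. WT replicates 1 and 2 had 1791 and 1058 E2f4 peaks, and KO replicates 1 and 2 had 287 and 683. A gene was counted as carrying E2f4 when the summit of a peak lay within 1000 bp of its marked end, that is the gene end where H3K4me2 covered more sequence. It is said to be called in that library. In the same order of libraries this took in 1377, 986, 238 and 680 genes, so that KO replicate 1 was the shortest list by peaks and by genes. Of 6 hepatocyte marker genes 5 were found in the table, and all 5 carried both marks in both genotypes, with H3K27ac over the whole 10001 bp around Alb, Apoa1 and Ttr. The summed H3K4me2 length over the hepatocyte markers was 37221 bp in WT and 35944 bp in KO. Over 5 lymphocyte markers it was 14964 bp in WT and 1704 bp in KO, with 1 and 4 markers at 0. Over 5 endothelial markers it was 17770 and 27031 bp, over 5 macrophage markers 13917 and 11956 bp, over 4 stellate cell markers 7302 and 11331 bp and over 4 cholangiocyte markers 4447 and 4055 bp. The summed H3K27ac lengths of WT and KO were 37256 and 40095 bp for the hepatocyte markers, 2740 and 4019 bp for lymphocytes, 31592 and 25515 bp for endothelium, 23258 and 19049 bp for macrophages, 13503 and 8722 bp for stellate cells, and 1864 and 0 bp for cholangiocytes. Of the H3K27ac at lymphocyte markers, 2591 bp in WT and all 4019 bp in KO lay at the marker Ptprc, with 3 and 4 markers at 0. The part of cells other than hepatocytes in the mark lengths given below was not tested, although the protocol has a step meant to isolate hepatocytes. In pooled cells, fewer cells of a type and less signal per cell cannot be told apart.

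E2f4 was called in both WT libraries at 15 of the 46 genes (32.6%). The share over all protein-coding genes was 3.67%, and over genes with H3K4me2 within 1000 bp of the marked end it was 5.33%. The 15 were the centriole genes Cep57, Cep57l1, Cep135, Cep152, Cep192 and Cep295, the augmin genes Haus3, Haus4, Haus5 and Haus6, the appendage genes Cep89 and Cep128, Cep72, Cep55 and Cep112. A further 3 genes, Cep76, Cep83 and Haus8, had a summit in 1 WT library, and at the marked ends of the other 28 none was called in any of the 4 libraries. WT replicate 1 called 16 of the family (6.29% of all protein-coding genes), WT replicate 2 called 17 (4.5%), KO replicate 1 called 3 (1.09%) and KO replicate 2 called 15 (3.11%). Both WT libraries and KO replicate 2 thus held about the same number of these genes, and KO replicate 1 stood apart, as it did over all genes.

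**Figure D1:**
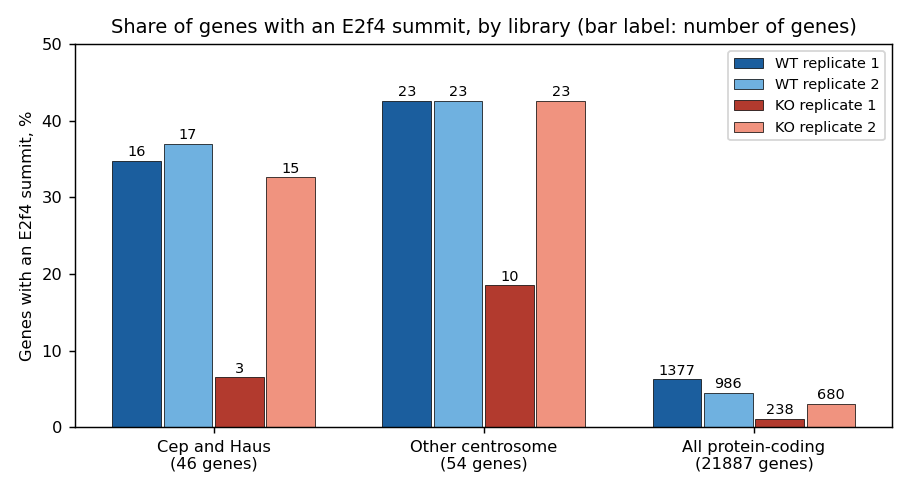
Share of genes with an E2f4 summit within 1000 bp of the marked gene end (vertical axis, percent) in the 4 E2f4 libraries, for the 46 Cep and Haus genes, 54 other centrosome genes and all 21887 protein-coding genes. The number above each bar counts genes: 16, 17, 3 and 15 for Cep and Haus genes in WT replicates 1 and 2 and KO replicates 1 and 2.

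Among the genes of centriole duplication and length control, 6 of 13 were called in both WT libraries, and these held the strongest peak of the family. Cep57, whose protein binds Cep63 and Cep152 and holds the pericentriolar material together (chromosome 9, 13807783 to 13827407), had peaks ranked 23 and 42 in the WT lists. In the KO lists they ranked 11 and 19, where rank 1 has the highest −log10 q-value of its list. Its −log10 q-values, which move with the depth of a list, were 133 and 185 for WT replicates 1 and 2, and 55.0 and 132 for KO replicates 1 and 2. It was the 1 member in the top 50 of all 4 lists. Cep152, the scaffold of Plk4 (chromosome 2, 125549864 to 125625174), had peaks ranked 115 and 160 in WT and 136 in KO replicate 2, with −log10 q-values of 66.0, 73.8 and 50.4 and no peak in KO replicate 1. Cep192, which recruits Plk4 and Aurora A (chromosome 18, 67800054 to 67885170), ranked 198 and 318 in WT and 288 in KO replicate 2. Cep57 and Cep152 were the 2 members with the best mean rank in WT.

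The other 3 of these genes had weaker peaks. Cep295, needed for the new centriole to become a centrosome, ranked 557 and 284 in WT and 256 in KO replicate 2. Cep135, a protein of the centriole's inner cartwheel (chromosome 5, 76588653 to 76646466), ranked 507 and 463 in WT and was called in both KO libraries, at ranks 180 and 467. It was among 3 members called in KO replicate 1, although its WT −log10 q-values of 15.5 and 19.2 were well under those of Cep152. Cep57l1, a relative of Cep57, ranked 986 and 772 in WT and 566 in KO replicate 2, and Cep76, which limits centriole copying, ranked 463 in WT replicate 2 alone. No summit was called at Cep44, Cep63, Cep78, Cep85, Cep97 or Cep120. At Cep120, which controls centriole length, the nearest summits lay just beyond the window, 1068 and 1109 bp from the marked end in WT, at ranks 786 and 317, with no KO peak within 5000 bp. The summits nearest to the edge of the window from inside were those of Haus4, 607 and 601 bp from the marked end in WT and 652 bp in KO replicate 2.

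Of the 8 augmin genes, 4 were called in both WT libraries and Haus8 in 1 of them. Haus6 (chromosome 4, 86578855 to 86612075) ranked 213 and 165 in WT, with KO ranks of 200 and 183, and was the 1 augmin gene called in all 4 libraries. Haus5 (chromosome 7, 30653708 to 30664994) ranked 364 and 119 in WT and 309 in KO replicate 2. Haus4 ranked 1224 and 682 in WT and 489 in KO replicate 2. Haus3 (chromosome 5, 34153896 to 34169424), at ranks 630 and 673, was the 1 gene of the 15 with no KO peak. Its WT −log10 q-values of 11.6 and 10.9 exceeded those of Haus4 in both WT libraries (4.36 and 10.4), and Haus4 was called in KO replicate 2. Haus8 was called in WT replicate 2 at rank 475 and in KO replicate 2 at rank 339. Haus1, Haus2 and Haus7 had no summit.

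The remaining summits belonged to genes of several roles. Cep55, which brings the machinery of the last step of cell division to the bridge between daughter cells (chromosome 19, 38054970 to 38074425), ranked 307 and 476 in WT and 357 in KO replicate 2. Cep72, a protein of the pericentriolar material, ranked 620 and 302 in WT and 370 in KO replicate 2, and was the 1 gene called among 4 linker and pericentriolar genes. The others were Cep68, Cep70 and Cep250. Among 16 genes of appendages, satellites and cilia, 2 were called in both WT libraries. Cep128, a protein of the subdistal appendages (chromosome 12, 90998490 to 91384455), ranked 426 and 175 in WT and 220 in KO replicate 2. Cep89, a protein of the distal appendages, ranked 268 and 450 in WT and 244 in KO replicate 2. Cep83, another distal appendage gene, was called in WT replicate 1 alone, at rank 1377 of 1791. The other 13, among them Cep164, Cep290, Cep131, Cep162 and Cep350, had none. Cep112 ranked 533 and 753 in WT and 433 in KO replicate 2.

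**Figure D2:**
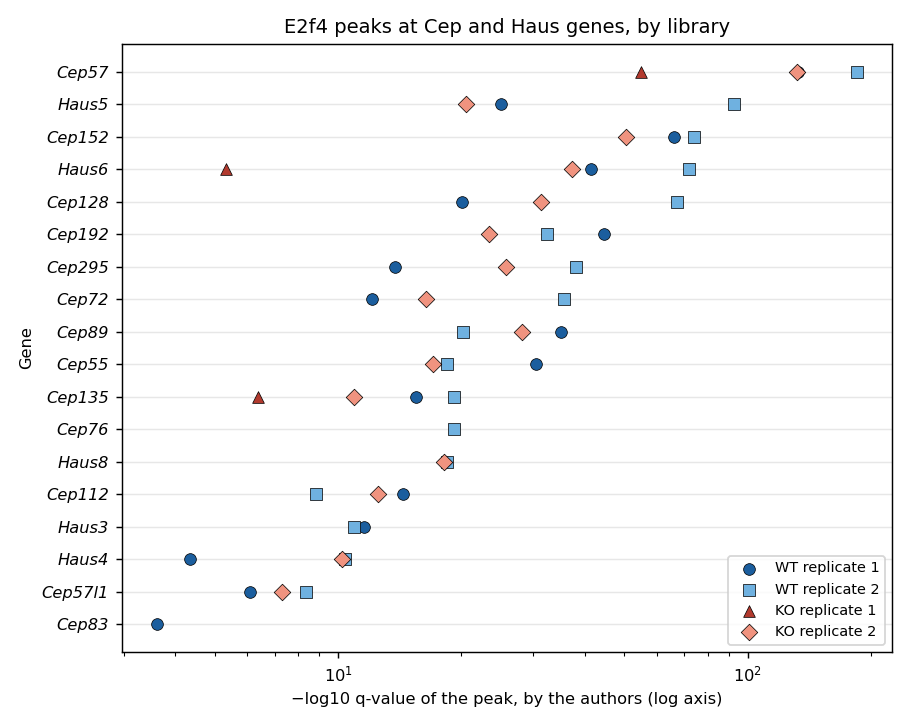
The −log10 q-value of the strongest E2f4 peak (horizontal log axis, the authors' value) at each of the 18 Cep and Haus genes with a summit in at least 1 library, by library. The Cep57 peak lies at 55.0 or above in all 4 lists, and KO replicate 1 has points for Cep57, Haus6 and Cep135 only; values move with the depth of a library and are not comparable between lists.

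A KO library also called 14 of the 15 genes, all but Haus3, beside 72% of the 803 genes called in both WT libraries. KO replicate 2 held 14 of them (71.6% of the 803) and KO replicate 1 held 3 (28.8%). Both KO libraries held 3 (28.4%), namely Cep57, Haus6 and Cep135. No Cep or Haus gene was called in KO alone, beside 31 of all 21887 protein-coding genes and 3 of the 54 other centrosome genes. The 803 genes were ordered by mean WT rank and cut into 4 groups of equal size, of which the strongest held 3, the next 5, the next 4 and the weakest 3 of the 15. A KO summit was found for 3, 5, 4 and 2 of these, and for 99.5%, 90.5%, 68.2% and 29.9% of all genes in those groups. In KO replicate 1 the counts were 2, 0, 1 and 0, beside 81%, 25.4%, 7.96% and 0.995% of all genes. The count of 14 rests on KO replicate 2, and without it 3 of the 15 had a KO summit.

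Peaks called at a gene in different libraries lay at the same place. In all 53 pairs of libraries that both had a peak at a member, the peaks overlapped by at least 50% of the shorter peak, and the summits lay a median of 18 bp and at most 74 bp apart. The summits compared had already been limited to within 1000 bp of the same gene end, and no share over all genes is given. At the 14 of the 15 genes with an annotated start in the promoter table, 9 summits of WT replicate 1 lay within 50 bp of a start of the gene, and the median distance was 21.5 bp. The summit of Cep152 lay 155 bp upstream and that of Cep135 154 bp downstream.

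At 2 of the 14 genes of both WT libraries with an annotated start, the peaks lay nearer to a neighbour's start on the other strand. At Cep57 the WT summits lay 487 and 490 bp upstream of its start but 122 and 119 bp from the start of Fam76b, which is read the other way. The marked end of Cep57 lay 300 bp upstream of that Cep57 start, and 187 and 190 bp from the WT summits. At Cep89 they lay 203 and 231 bp upstream, and 93 and 65 bp from the start of Faap24, a gene of the Fanconi anaemia core complex. The strongest E2f4 site of the family therefore belongs to a promoter that Cep57 shares with Fam76b, and the lists cannot assign it to 1 of them. Another gene started or ended within 1000 bp of the marked end at 20 of the 46 genes, 16 of them with a protein-coding neighbour, and at 5 of the 15. Beside Cep57 and Cep89 these were Haus3 with Poln, a DNA polymerase gene 72 to 110 bp from the summits, Cep57l1 with Sesn1 at 953 to 973 bp, and Cep192 with the non-coding gene 4930549G23Rik. The start of Haus3 itself was 8 and 30 bp from the summits there. Cep192 has no start in the promoter table, and an end of 4930549G23Rik lay 111 bp from its marked end. The WT summits of Cep192 lay between them, nearer to 4930549G23Rik. Haus8, called in 1 WT library, lay beside Myo9b. At Cep76, called in WT replicate 2 alone, the summit lay 16 bp from the marked end. An end of the protein-coding gene Psmg2 lay 232 bp from that marked end. The summit of Cep83, also called in 1 WT library, lay 139 bp upstream of its annotated start and 27 bp from its marked end. It was nearer to the start of the non-coding gene Cep83os, on the other strand, than to the annotated start of Cep83. Shared promoters without an E2f4 summit included Cep63 with Anapc13 (a subunit gene of the anaphase-promoting complex), Cep290 with Tmtc3, Cep95 with Ddx5, Haus2 with Lrrc57, Cep19 with Pigx and Cep44 with Fbxo8.

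**Figure D3:**
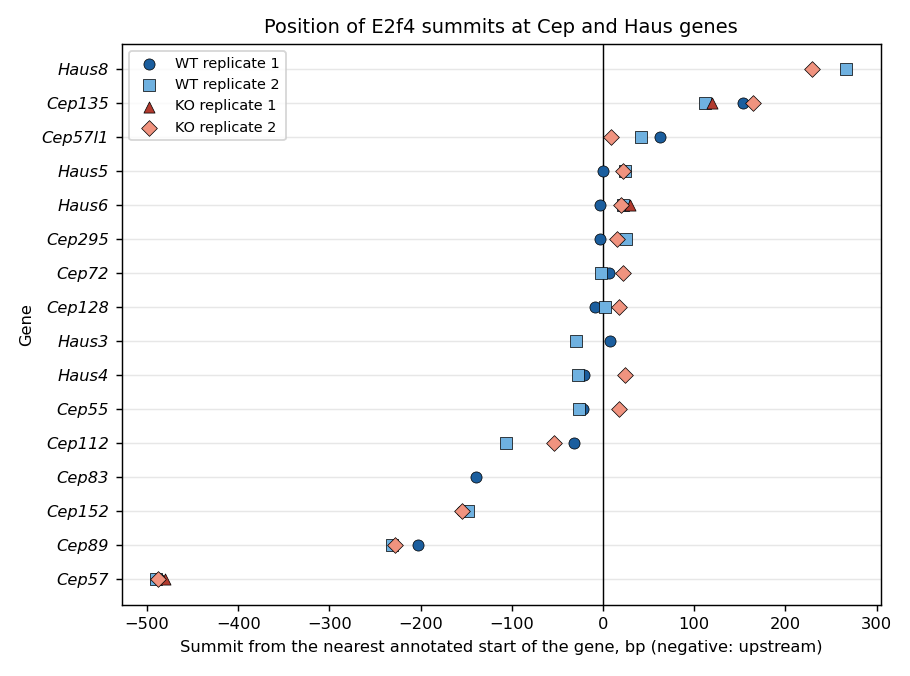
Position of E2f4 summits (horizontal axis, bp from the nearest annotated start of the gene, negative values upstream) at 16 Cep and Haus genes with a start in the promoter table, by library. Most points lie near 0, with Cep57 (487 and 490 bp in WT) and Cep89 (203 and 231 bp in WT) the farthest upstream.

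The sequences at the summits were compared because they hold the letters under the E2f4 peaks. Sequence was taken from the RefSeq promoter table (build GRCm38.p6), which gives 250 bases before and 50 after each annotated start, up to 75 bases either side of the summit of WT replicate 1. The 8 genes are those with the strongest mean WT rank that the table covers, each written along its own strand. Capitals mark the letters TTCCCGC or the same word with CG, GC or GG in place of the CC that follows TT (the last 7 bases of the E2F consensus), and the cell cycle element CHR, written as TTTGAA or TTCGAA. Both strands were searched, and the letters of a site read from the other strand appear reversed and complemented.
Cep57 (chr9:13827519-13827669, minus strand): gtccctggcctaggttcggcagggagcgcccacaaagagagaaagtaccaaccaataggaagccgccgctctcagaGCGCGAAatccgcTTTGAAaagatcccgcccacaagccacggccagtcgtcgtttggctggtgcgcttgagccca
Cep152 (chr2:125625193-125625343, minus strand): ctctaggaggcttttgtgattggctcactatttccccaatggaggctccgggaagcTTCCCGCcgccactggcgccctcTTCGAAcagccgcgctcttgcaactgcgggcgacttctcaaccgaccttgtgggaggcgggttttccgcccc
Haus6 (chr4:86612006-86612133, minus strand): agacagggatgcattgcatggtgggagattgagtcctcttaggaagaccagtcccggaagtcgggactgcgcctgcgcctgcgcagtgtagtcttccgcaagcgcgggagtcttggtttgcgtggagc
Haus5 (chr7:30664945-30665069, minus strand): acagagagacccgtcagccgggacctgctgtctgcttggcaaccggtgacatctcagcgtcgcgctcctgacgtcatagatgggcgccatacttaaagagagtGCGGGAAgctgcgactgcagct
Cep128 (chr12:91384360-91384493, minus strand): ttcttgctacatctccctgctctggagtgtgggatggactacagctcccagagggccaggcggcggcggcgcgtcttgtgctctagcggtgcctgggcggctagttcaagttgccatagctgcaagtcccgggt
Cep89 (chr7:35396785-35396935, plus strand): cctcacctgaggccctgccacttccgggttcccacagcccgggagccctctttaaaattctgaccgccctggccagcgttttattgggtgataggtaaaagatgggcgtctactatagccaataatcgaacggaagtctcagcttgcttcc
Cep55 (chr19:38054944-38055090, plus strand): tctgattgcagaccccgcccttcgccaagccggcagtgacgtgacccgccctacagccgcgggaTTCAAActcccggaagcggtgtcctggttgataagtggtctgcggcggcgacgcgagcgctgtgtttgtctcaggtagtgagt
Cep295 (chr9:15357739-15357866, minus strand): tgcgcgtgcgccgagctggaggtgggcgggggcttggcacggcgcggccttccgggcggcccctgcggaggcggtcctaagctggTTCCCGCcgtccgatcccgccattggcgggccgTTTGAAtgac

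Cep57, Cep152 and Cep295 held both an E2F word and a CHR element there, with 6, 16 and 26 bases between them. The Cep57 site is GCGCGAAA read along Cep57, the full 8-base E2F consensus on the other strand. Haus5 held an E2F word and no CHR element, Cep55 a CHR element and no E2F word, and neither was found at Haus6, Cep128 or Cep89. Over all 13 genes of the 15 with sequence at the summit (63 to 151 bases), 5 held an E2F word and 6 a CHR element, 3 held both and 5 held neither. Only 4 of the 13 had 151 complete bases, and of these 2 held an E2F word and 3 a CHR element. Of all 318 genes called in both WT libraries with 151 complete bases, 44.7% held an E2F word and 34.0% a CHR element. Of the last 151 bases of all promoter windows, 7.21% and 7.51% did. A match is a description of letters, and a sequence without one says nothing about E2f4.

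Over whole promoter windows of 300 bases, an E2F word was found at 8 of 14 genes called in both WT libraries and at 7 of 23 genes with no WT summit, and at 13.7% of all protein-coding genes in the table. The CHR element was found at 7 of the 14 and at 3 of the 23 (20.2% of all genes). The sequence CCAAT, which NF-Y binds in many cell cycle promoters, was found at 9 of the 14 and 11 of the 23 (42.3% of all genes); it can share letters with an E2F word that contains CCAA. The full E2F consensus of 8 bases (TTTCCCGC, TTTCGCGC, TTTGCCGC or TTTGGCGC) was found in 2 of the 39 members' windows, those of Cep128 and Cep63 (3.29% of all genes). The Cep57 match lay outside the windows of its own starts. Every octamer also counts as an E2F word. Of all 660 genes called in both WT libraries with a promoter window, 44.1% held an E2F word, 34.4% a CHR element and 58.6% CCAAT. The octamer was held by 20.5% of these 660 genes and by 1 of the 14 members.

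Of other centrosome genes, which the symbol rule does not take, 20 of 54 (37.0%) were called in both WT libraries. With every list cut to its 287 strongest peaks, 12 of the 54 and 3 of the 46 Cep and Haus genes were called in both. The share over all protein-coding genes was not computed at that cut. With the full lists, the share called in both WT libraries was highest for spindle pole and microtubule nucleation genes, 9 of 12. Among these were Spag5 at ranks 28 and 87, Ckap5 at 55 and 155 and Plk1, the mitotic kinase of centrosome maturation, at 83 and 137. Further genes of that group with both WT summits were Aspm, Tacc3, Hmmr, Ckap2l, Numa1 and Tpx2. Of the centriole assembly genes 4 of 15 had both, namely Sass6, the cartwheel protein gene (ranks 130 and 66), Plk4 (107 and 188), Stil and Rttn. Among pericentriolar material and gamma-tubulin genes there were 4 of 12 (Mzt1, Pcnt, Cdk5rap2 and Nedd1), and among appendage and satellite genes 3 of 15 (Kif24, Nek2 and Sclt1). Of the 20, 19 had a KO summit, Nedd1 (ranks 1355 and 670 in WT) being the exception, and 9 had one in both KO libraries.

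H3K27ac covered a longer stretch in the KO library at 31 of the 44 members that carried it within 5000 bp of the marked end, and a shorter one at 13. Over all protein-coding genes 64.8% carried it, of which 52.5% were longer and 46.8% shorter in KO. The median over members was 1459 bp in WT and 1808 bp in KO, and the median difference was 313 bp, beside 32.5 bp over all marked genes. It was 119 bp within 1000 bp of the marked end and 156 bp as a mean over both gene ends. Of 54 other centrosome genes 53 carried the mark, with 35 longer and 18 shorter in KO and a median difference of 317 bp. At least 1.5-fold longer were 10 members (15.2% of all marked genes) and at least 1.5-fold shorter was 1, Haus5 (14.3%). Of the 10, Cep55, Cep72, Cep128, Cep135, Cep152 and Haus4 carried E2f4 in both WT libraries, and Cep70, Cep97, Cep164 and Haus7 did not. Among the 15 genes with E2f4 in both WT libraries, 12 were longer in KO and 3 shorter, with a median difference of 377 bp. Over all 798 marked genes with E2f4 in both WT libraries, 564 (70.7%) were longer, with a median difference of 290 bp, so that a longer mark in KO was common among them too.

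Cep55, Cep128 and Cep152 had longer H3K27ac in KO and a summit that only the KO region covered. H3K27ac within 5000 bp of Cep55 was 761 bp long in WT and 1813 bp in KO. At Cep128 no region was listed in WT and 1020 bp were covered in KO, all of it within 1000 bp of the marked end. At Cep152 the lengths were 514 and 929 bp. At these 3 genes the summits of E2f4 lay outside the WT H3K27ac regions and inside the KO regions, in every library with a peak there, whereas H3K4me2 covered the summits in both genotypes. Of the 803 genes with E2f4 in both WT libraries 81 (10.1%) showed this for WT replicate 1, and 690 (85.9%) had the summit inside H3K27ac in both genotypes. Cep112 showed the opposite, its summits lying inside the WT region and outside the KO region, as at 3 of the 803 genes. Its covered length was nonetheless longer in KO (901 and 1216 bp).

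Among the remaining genes, H3K27ac was longer in KO by the most at Cep170, a subdistal appendage gene (5053 bp in WT and 6981 bp in KO), and at Cep85, a gene for a partner of Stil (4301 and 5881 bp). Cep44 (3900 and 5391 bp), Cep70 (985 and 2397 bp) and Haus4 (1574 and 2784 bp) followed. It was shorter in KO by the most at Cep95 (6432 and 4384 bp), whose promoter is shared with the RNA helicase gene Ddx5, at Cep120 (3544 and 2414 bp) and at Cep63 (4853 and 3787 bp). Cep350 (3279 and 2499 bp), Haus5 (1747 and 1124 bp) and Cep43 (2778 and 2225 bp) followed. None of these 11 genes except Haus4 and Haus5 had an E2f4 summit in both WT libraries. Of the 8 augmin genes 7 were longer in KO, among them Haus7 (641 and 1252 bp). Of the 14 marked genes of appendages, satellites and cilia 8 were longer and 6 shorter. Haus5 alone of the 8 augmin genes was shorter in KO, and within 1000 bp of its marked end it too was slightly longer in KO (705 and 823 bp).

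**Figure D4:**
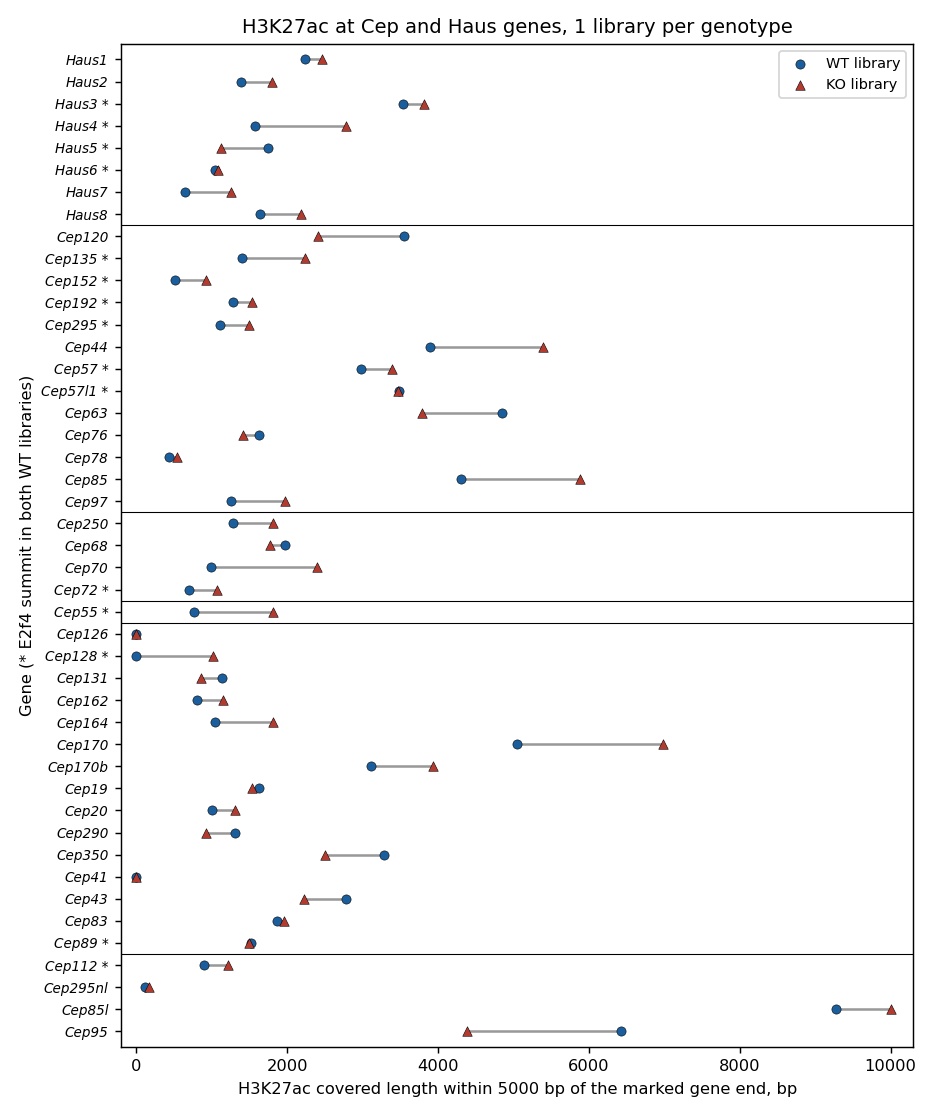
Length covered by H3K27ac within 5000 bp of the marked gene end (horizontal axis, bp) at 45 of the 46 Cep and Haus genes in the WT library (circles) and the KO library (triangles), 1 library each. Horizontal rules separate, from the top, augmin, centriole duplication and length control, linker and pericentriolar material, cytokinesis, appendages with satellites and cilia, and genes without a stated role; asterisks mark the 15 genes with an E2f4 summit in both WT libraries, of which 12 have the triangle to the right.

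The marked end lay over 1000 bp from any annotated start of the gene at 2 of the 39 members with such a start, Cep41 and Cep70. At the others the distance was at most 897 bp, at Cep20. It was 628 bp at Haus4, whose WT summits lay 21 and 27 bp from its start. At the marked end of Cep41, a gene for a factor of tubulin glutamylation in cilia, no H3K27ac was listed in either genotype and no H3K4me2 in WT. At its annotated start (chromosome 6, 30693749) H3K27ac covered 1327 bp in WT and 1661 bp in KO, and H3K4me2 1887 and 1978 bp. At the start of Cep70 (chromosome 9, 99243341) H3K27ac covered 1276 and 1308 bp, so that the difference seen at its marked end was not seen there, and an E2f4 peak of WT replicate 2 (rank 943) lay 12 bp away. Cep126 had no H3K27ac within 5000 bp in either genotype, although H3K4me2 covered 1675 and 2057 bp. Cep295nl, for which the marks favoured neither end, had 0 bp of H3K4me2 in WT and a mean of 482.5 bp over its ends in KO.

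H3K4me2 was found within 5000 bp at all 46 members (75.8% of all protein-coding genes) and was longer in the KO library at 33 and shorter at 13. Over all marked genes 60.3% were longer and 39.4% shorter. The median difference over members was 207 bp, beside 119 bp over all marked genes, although the median length was 2298 bp in WT and 2113 bp in KO, the other way round. The majority was not seen nearer the gene end: within 1000 bp 16 of 45 marked members were longer, within 2000 bp 22 of 45, and the median difference was 0 in both windows. As a mean over both gene ends it was 122 bp. Of the 54 other centrosome genes 23 were longer and 31 shorter in KO within 5000 bp, with a median difference of −88 bp. At least 1.5-fold longer were 4 members (12.7% of all), Cep170, Cep68, Cep41 and Cep295nl, and at least 1.5-fold shorter was 1, Cep295 (6.5% of all). Of the 15 genes with E2f4 in both WT libraries 8 were longer and 7 shorter, and of all 803 such genes 361 were longer and 440 shorter. Of the 31 others 25 were longer.

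By role, 10 of 13 centriole genes and 13 of 16 appendage, satellite and cilium genes had longer H3K4me2 regions in KO, but 2 of 8 augmin genes, Haus1 (3909 and 4100 bp) and Haus8 (2974 and 3193 bp). The widest difference was at Cep170, with 5270 bp in WT and 9868 bp in KO. The next were Cep44 (5419 and 6817 bp), Cep68, a gene of the linker between centrioles (2369 and 3687 bp), Cep41 (0 and 1148 bp) and Cep350 (3921 and 5064 bp). None of these 5 genes had an E2f4 summit. H3K4me2 was shorter in KO by the most at Cep295 (2472 and 1605 bp), Cep43 (3704 and 2948 bp), Cep192 (2192 and 1486 bp), Cep55 (2539 and 1915 bp), Cep19 (2619 and 2077 bp) and Haus4 (2357 and 1862 bp). At Cep295, Cep192, Cep55, Haus3, Haus4 and Haus6, which carried E2f4 in both WT libraries, H3K27ac was longer in KO while H3K4me2 was shorter. The H3K27ac difference was small at Haus6 (1042 and 1077 bp). Of all marked genes with E2f4 in both WT libraries, 70.7% had longer H3K27ac and 54.8% shorter H3K4me2 in KO. The share of those genes with both was not counted. Haus5, the remaining E2f4 gene with shorter H3K4me2, had shorter H3K27ac as well.

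**Figure D5:**
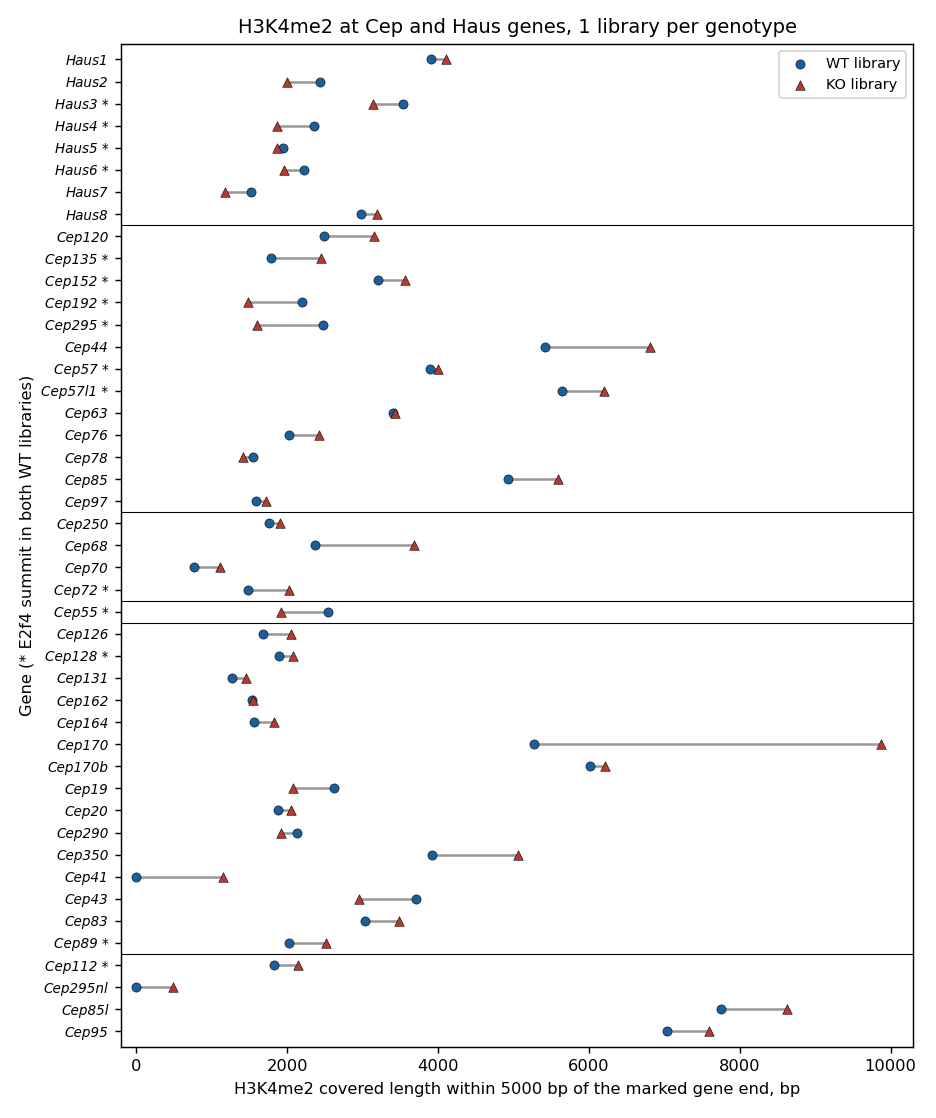
Length covered by H3K4me2 within 5000 bp of the marked gene end (horizontal axis, bp) at 45 of the 46 Cep and Haus genes in the WT library (circles) and the KO library (triangles), 1 library each, ordered as for H3K27ac. Cep170 has the longest line, between 5270 and 9868 bp, and 6 of the 8 augmin genes at the top have the triangle to the left.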

How the data were processed

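Lists of called peaks, 1 per immunoprecipitated library, were used, 8 in all; the 8 inputs were not analysed here. Per the submitters' processing notes, the build was mm10 and the tools were MACS2 2.0.10.20131216, HOMER, Bowtie2 2.2.3 and Picard; the step each served is not known here. The deposited lists give for each peak a fold enrichment (a ratio), −log10 p-values, −log10 q-values, a score of 10 times the −log10 q-value (not used) and, for E2f4, the summit. Fold only ordered peaks of equal q-value where lists were cut to equal length. The q-values only ordered peaks inside their own list or set a threshold.

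The members and gene lists were chosen with earlier results of these data known. The marked end is the annotated end with more H3K4me2 within 2000 bp over both genotypes, H3K27ac deciding ties, and both ends (averaged for lengths) where neither decides. Marks are lengths covered within 5000 bp. No test was made over the members. The values of 1 member, which is in the counts, are not reported here. Named genes were all members with a summit, for each mark the 6 largest increases and decreases, and members without a mark. Of the other centrosome genes, up to 12 by WT rank were planned, but all 20 called in both WT libraries were named. Haus7 and the members without a summit were named as well after their values were seen. Gene positions and promoter sequences came from RefSeq (GRCm38.p6), with an annotated start for 39 members. Functions were tested on simulated data. Python 3.11.15, pandas 2.3.3 and numpy 2.4.6 were used. Alternatives were other windows, gene ends, thresholds, list lengths and left-out libraries.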

Additional observations from a re-analysis of the deposited data

How the results depend on the processing

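The count of 15 members called in both WT libraries lay between 12 and 16 under other windows, gene ends and stricter q-values. With 1 library left out it lay between 15 and 17. The 17 and 16 there were counts in WT replicate 2 alone and in WT replicate 1 alone. With the 4 E2f4 lists cut to the 287 strongest peaks the count was 3, of which 3 had a KO summit, and that of the other centrosome genes was 12 in place of 20. No share over all protein-coding genes was computed at that cut. When a library was left out, genes of both WT libraries with a KO summit numbered 3 to 15. The 3 came without KO replicate 2, and the 15 without WT replicate 1, where WT replicate 2 alone was required. Genes with a summit in both KO libraries then numbered 3 to 15, the 15 being the count in KO replicate 2 alone. Where peaks needed −log10 q of 10 the count for both KO libraries was 1. The median H3K4me2 difference of 207 bp was 0 within 1000 bp and 0 within 2000 bp, and 122 bp as a mean over both gene ends. The median H3K27ac difference of 313 bp was 119 bp within 1000 bp and 156 bp over both ends; the cause was not tested. Members with an E2F match in the promoter numbered 2 for 8 bases and 16 for 7. Left-out libraries moved the number of other centrosome genes between 20 and 23, the 23 being the count in 1 WT library alone. No paired analysis was possible because no result came from a test. The lists hold no counts, so depth limits every absence of a peak.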
